A study of Mus musculus with 20 samples.

Results

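The genes described here encode the CAPS and Munc13 vesicle priming proteins of the mouse: Cadps and Cadps2, which encode CAPS1 and CAPS2, Unc13a, Unc13b, Unc13c and Unc13d, which encode Munc13-1 to Munc13-4, and Baiap3, a relative of the Munc13 genes. They are 7 of the 78258 genes in the count table, and all 7 were among the 28564 genes abundant enough to be tested. The set was chosen by the measured level of Cadps, which in conditional knockout (cKO) libraries of the uninjured side was 49.8% of the control level. For this reason the genotype difference of Cadps is given as a description, with no test, and the tests concern the other 6 genes and the response to injury. The question was whether Cadps2 or an UNC13 gene was higher where Cadps was lower.

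The libraries were made from dorsal root ganglia, which hold the cell bodies of sensory neurons with their glia, of 10 male mice, 5 of each genotype. The cKO mice were Ahr fl/fl and carried Thy1CRE-ERT2/EYFP, a Cre recombinase that tamoxifen activates, with a fluorescent marker, under a promoter used in neurons. Ahr encodes the aryl hydrocarbon receptor, a ligand-activated transcription factor. Control mice were Ahr f/f or f/+ and no transgene is named for them, so loss of Ahr, the transgene and its site of insertion cannot be told apart in any cKO against control difference. Mice of both genotypes received 5 daily doses of tamoxifen (100 mg/kg) at the age of 17 weeks. The sciatic nerve was cut on 1 side 4 weeks later, and 1 day after that the L4 to L6 ganglia of the cut (ipsilateral) and the uncut (contralateral) side gave 1 library each per mouse, which makes 4 groups of 5 libraries. The contralateral ganglia are therefore from mice that had surgery and not from unoperated mice.

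Neurons release transmitter from small clear vesicles and neuropeptides and growth factors from large dense-core vesicles. Before either kind can fuse with the plasma membrane it has to be primed, a step in which SNARE proteins are brought into a partly assembled state. Munc13 proteins open syntaxin for this assembly, mainly at the synaptic release site, while CAPS proteins bind membrane lipid and SNAREs and are best known for priming dense-core vesicles. The cell bodies of sensory neurons also secrete peptide from dense-core vesicles within the ganglion.

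The promoters of 6 of the 7 genes were found in the RefSeq table (GRCm38.p6). Those of Cadps, Cadps2 and Unc13a are shown because these are the gene that was lower in cKO, its paralogue, and the most abundant UNC13 gene. Each runs 5′ to 3′ on the gene's strand from 250 bases before to 50 bases after the start, and capitals mark GCGTG or its reverse complement CACGC, the core of the element that the aryl hydrocarbon receptor binds with its partner ARNT. The intervals are chr14:12823030-12823329 for Cadps, chr6:23839372-23839671 for Cadps2 and chr8:71671708-71672007 for Unc13a, all on the minus strand.
Cadps: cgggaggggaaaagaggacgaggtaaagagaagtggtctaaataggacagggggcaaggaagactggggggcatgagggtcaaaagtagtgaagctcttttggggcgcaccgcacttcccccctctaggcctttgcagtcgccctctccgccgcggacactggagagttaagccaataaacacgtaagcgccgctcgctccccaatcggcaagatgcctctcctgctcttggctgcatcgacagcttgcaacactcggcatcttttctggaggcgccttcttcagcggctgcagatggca
Cadps2: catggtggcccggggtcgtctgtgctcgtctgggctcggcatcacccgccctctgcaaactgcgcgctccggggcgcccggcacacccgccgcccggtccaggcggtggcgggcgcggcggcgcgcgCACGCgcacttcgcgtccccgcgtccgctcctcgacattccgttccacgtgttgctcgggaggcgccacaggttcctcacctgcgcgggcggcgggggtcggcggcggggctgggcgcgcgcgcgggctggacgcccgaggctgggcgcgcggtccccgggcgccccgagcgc
Unc13a: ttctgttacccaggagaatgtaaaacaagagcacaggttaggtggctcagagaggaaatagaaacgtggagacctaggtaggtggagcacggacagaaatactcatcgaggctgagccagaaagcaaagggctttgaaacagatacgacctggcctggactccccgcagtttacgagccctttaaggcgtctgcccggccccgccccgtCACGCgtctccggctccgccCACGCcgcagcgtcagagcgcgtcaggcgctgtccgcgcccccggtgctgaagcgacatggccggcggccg
On either strand, the core was found in 3 of the 6 promoters, those of Cadps2, Unc13a and Unc13b, and in 32.4% of all 32851 promoters in the table. It began at base -123 of Cadps2 and at bases -41 and -21 of Unc13a, counted from the start of transcription. These letters were not in the windows of Cadps, Unc13c and Baiap3. The longer form TNGCGTG was in 0 of the 6 windows and in 5.07% of all. A match describes the sequence and shows no binding.

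Libraries held 76.2 to 118.5 M exonic counts (M, mega), and the 7 genes had from 168 counts (Baiap3, lowest library) to 71383 counts (Cadps, highest library) each. Levels are given as CPM, the share of a library's counts on a per-mega scale after TMM scaling (mean ± SD, n = 5 mice in each group). The targeted gene, Ahr, was at 24.2 ± 2.10 CPM in control and 20.4 ± 0.536 CPM in cKO contralateral libraries, a fitted log2 difference of -0.25 that did not pass the adjusted threshold of 0.05 (edgeR quasi-likelihood test, adjusted p = 0.103), with no overlap between 21.3 to 27.2 CPM in control and 19.5 to 21.0 CPM in cKO libraries. On the ipsilateral side Ahr was at 34.4 ± 2.86 and 31.9 ± 2.94 CPM with overlapping ranges (log2 difference -0.11, adjusted p = 1.00). Thy1, whose promoter drives the transgene, was at 602 to 679 CPM in control and 1018 to 1176 CPM in cKO contralateral libraries. Markers of sensory neurons summed to 15886 to 18177 CPM in control and 15251 to 18335 CPM in cKO contralateral libraries, with none of the 19 genes at 0 in any group. Fibroblast markers (6 genes) summed to 802 to 1356 CPM in the control and 935 to 2236 CPM in the cKO contralateral libraries. No gene of the marker lists was called between genotypes on either side, where 0.0735% (contralateral) and 0.007% (ipsilateral) of all tested genes were called. The median contralateral log2 differences of the lists were -0.06 for sensory neurons, 0.81 for fibroblasts, 0.26 for macrophages, 0.79 for neutrophils, -0.48 for lymphocytes, 0.17 for endothelium, -0.01 for satellite glia and 0.00 for Schwann cells. All values come from whole ganglia, in which fewer cells of a type and less RNA per cell cannot be told apart.

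Cadps, the CAPS gene of most neurons, was lower in every cKO library than in any control library, on both sides. On the contralateral side the control mice H62, H63, H65, H96 and H97 had 576, 610.3, 611, 592 and 623 CPM. The cKO mice H61, H64, H95, H99 and H100 had 318, 281, 266, 343 and 291 CPM. The highest cKO library was below the lowest control library, as it was, by any margin, for 1.07% of all tested genes. The means were 602 ± 18.5 and 299.7 ± 30.8 CPM, a log2 difference of -1.01 (SE 0.0506), and cKO libraries held 49.8% of the control level. On the ipsilateral side the control mice, in the same order, had 616, 619.8, 596, 568 and 575 CPM and the cKO mice had 319, 330.1, 318, 315 and 320.4 CPM. Again every cKO library was below every control library, which held, by any margin, for 0.235% of all tested genes, and the 5 cKO libraries lay within a narrow band. Over both sides, 0.0105% of all tested genes kept all 10 cKO libraries apart from all 10 control libraries. The means were 595 ± 23.2 and 320.5 ± 5.77 CPM, a log2 difference of -0.89 (SE 0.0505). The spread between cKO mice was wider on the contralateral side, with a coefficient of variation of 10.3%, than on the ipsilateral side, where it was 1.80%. In control mice these were 3.07% and 3.90%.

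**Figure D1:**
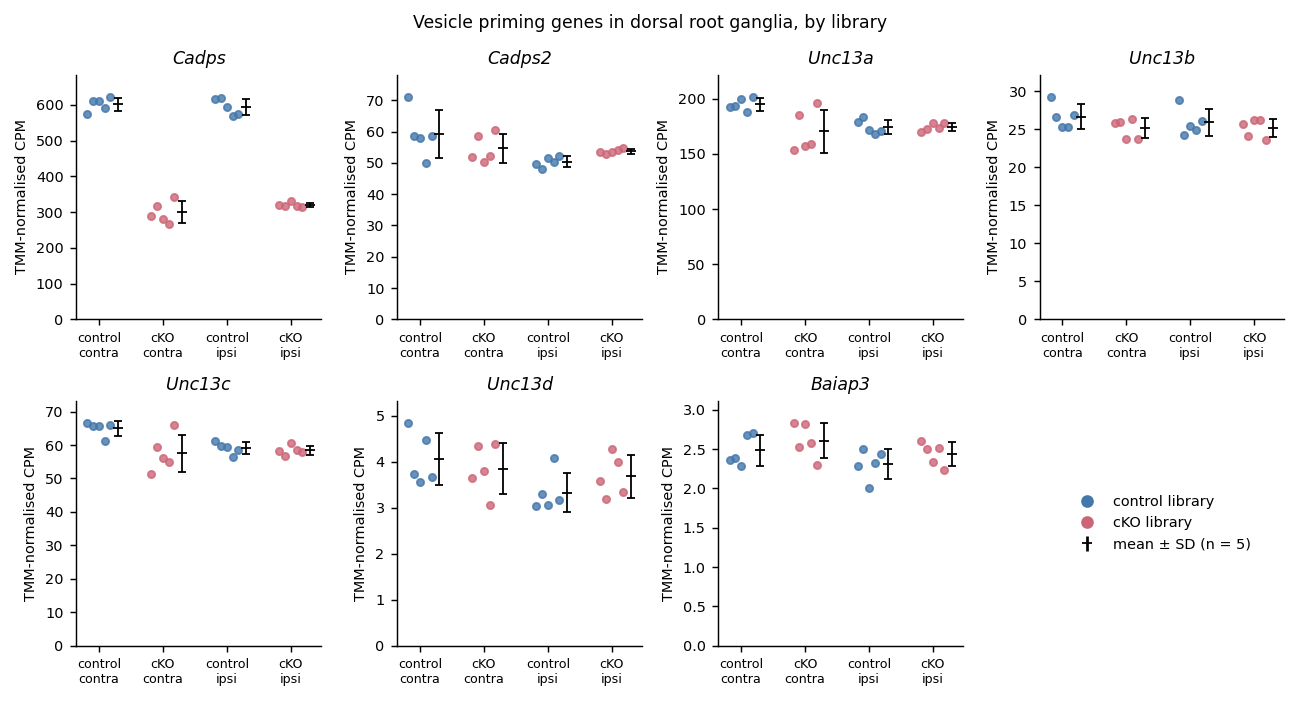
Level of each of the 7 priming genes (TMM CPM, 1 panel per gene) in the 4 groups, with 1 point per library and the mean and SD of 5 mice. Only Cadps separates the genotypes on both sides; for Cadps2 the genotypes separate on the ipsilateral side, and for the other 5 genes they overlap on both.

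The 7 genes were not equally abundant, and their levels were compared per kilobase of merged exons. In control contralateral ganglia Cadps stood at 40.0 ± 1.23 CPM per kb and Unc13a, which encodes the main Munc13 of fast synapses, at 15.5 ± 0.455 CPM per kb. Unc13c followed at 7.39 ± 0.250 and Cadps2 at 6.19 ± 0.792 CPM per kb. Unc13b, at 1.17 ± 0.0719 CPM per kb, stood above Unc13d, whose product primes secretory granules of blood cells, at 0.867 ± 0.120. Baiap3, which has been linked to dense-core vesicle traffic, was lowest at 0.486 ± 0.0381 CPM per kb. Unc13c and Cadps2 are the only neighbours in this order whose libraries overlapped. Their order turned when coding length was used, with 15.1 ± 1.94 CPM per kb for Cadps2 and 9.80 ± 0.331 for Unc13c.

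**Figure D2:**
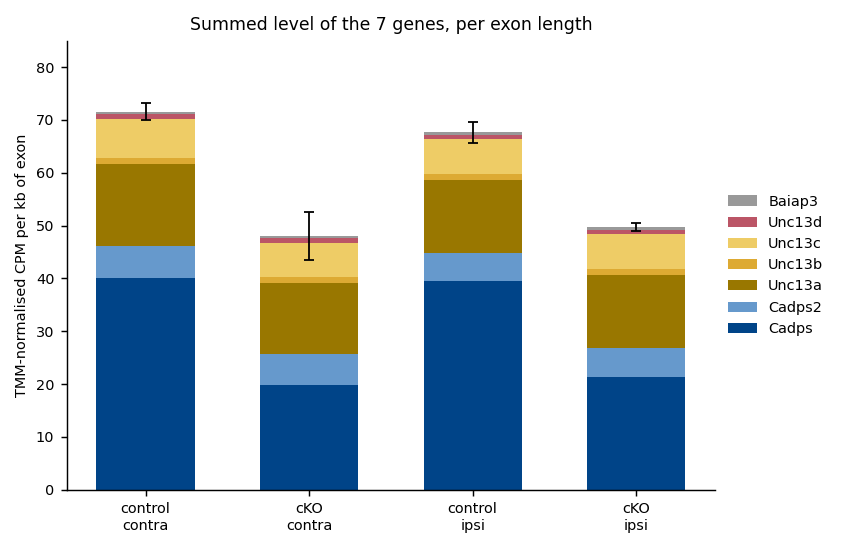
Level per kilobase of exon (TMM CPM per kb) of the 7 genes in the 4 groups. In cKO libraries Cadps moves from about 40.0 to 19.9 CPM per kb contralaterally and stays highest, and the order of the other genes is kept from Unc13a down to Baiap3.

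Cadps2 was not called higher in cKO ganglia on either side, and on the contralateral side its fitted difference was below 0. There the control mice H62, H63, H65, H96 and H97 had 71.1, 58.7, 57.8, 49.98 and 58.5 CPM, and the cKO mice H61, H64, H95, H99 and H100 had 58.5, 50.3, 52.1, 60.4 and 51.8 CPM. The groups overlapped, with H62 alone high. The log2 difference was -0.12 (SE 0.0658, edgeR quasi-likelihood test with Benjamini-Hochberg adjustment, adjusted p = 0.373), with a 95% interval from -16.1% to 1.46%. Without H62 it was -0.04 (adjusted p = 0.738). On the ipsilateral side the control mice had 49.7, 47.9, 51.5, 50.4 and 52.4 CPM and the cKO mice 52.9, 53.3, 54.2, 54.9 and 53.6 CPM. Here all 5 cKO libraries were above all 5 control libraries, by a small margin. Among all tested genes, 0.364% had every ipsilateral cKO library above every control library and 0.599% did not overlap in either direction, and Cadps2 is the only one of the 6 tested genes that did so. The difference was 0.09 (SE 0.0658) on the log2 scale and did not pass the test (adjusted p = 1.00), with a 95% interval from -2.94% to 17.4%.

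Unc13a and Unc13c, the UNC13 genes with the highest levels per length, had lower fitted levels in contralateral cKO ganglia, with differences that did not pass the adjusted threshold. Unc13a was at 192, 193, 199.9, 188 and 202 CPM in the control mice, in the order given above, and at 185, 158, 159, 196 and 154 CPM in the cKO mice. The cKO mouse H99 was within the control range and the other 4 were below every control mouse, H61 by the smallest margin. The log2 difference was -0.20 (SE 0.0523, adjusted p = 0.103), with a 95% interval from -19.0% to -5.80%. Unc13c, which encodes a Munc13 best known from the cerebellum, was at 66.6, 65.7, 65.6, 61.1 and 66.0 CPM in control and 59.4, 56.0, 54.8, 65.9 and 51.4 CPM in cKO mice. Again H99 lay among the control libraries and the other 4 cKO libraries lay below all of them. Its log2 difference was -0.18 (SE 0.0471, adjusted p = 0.103), with a 95% interval from -17.3% to -5.26%. Without mouse H99 both genes were called lower, Unc13a by -0.25 (adjusted p = 0.0036) and Unc13c by -0.23 (adjusted p = 0.0033), and DESeq2 on all mice called both as well (adjusted p = 0.0228 and 0.0256). Over all genes those fits called 3326 genes, or 11.5%, without H99 and 1032 genes, or 5.04% of those with an adjusted p, with DESeq2, against 21 genes in the edgeR fit of all mice. Mouse H99 had the highest contralateral sum of sensory neuron markers (18335 CPM) and the lowest fibroblast sum of the cKO mice (935 CPM). The fibroblast sums of H64, H95 and H100, the cKO mice with the lowest Unc13a, were 2236, 1980 and 1685 CPM, against 802 to 1356 CPM in control mice. With a fibroblast score in the edgeR fit the differences were -0.09 for Unc13a and -0.12 for Unc13c (adjusted p = 0.901 and 0.875). The 6 fibroblast markers were themselves all fitted higher in cKO mice on this side (median 0.81). That fit, which called 2 genes over all genes, therefore cannot tell fibroblast content and genotype apart. The part of any cell type was not tested.

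On the ipsilateral side neither gene separated by genotype. Unc13a was at 168 to 184 CPM in control and 170.1 to 178 CPM in cKO libraries, and Unc13c was at 56.3 to 61.2 and 56.8 to 60.6 CPM. The cKO range lay within the control range for both genes. The log2 differences were -0.00 (SE 0.0523) for Unc13a and -0.01 (SE 0.0470) for Unc13c, with 95% intervals from -7.40% to 7.69% and from -7.53% to 5.93% (adjusted p = 1.00 for both).

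The 3 remaining genes are expressed at low levels in these ganglia and overlapped between genotypes on both sides. Unc13b, whose isoforms act at a subset of synapses, was at 25.3 to 29.3 CPM in control and 23.7 to 26.4 CPM in cKO contralateral libraries, and at 24.2 to 28.9 and 23.6 to 26.3 CPM on the ipsilateral side. Its log2 differences were -0.09 (SE 0.0520, adjusted p = 0.405) and -0.04 (SE 0.0519, adjusted p = 1.00). Unc13d was at 3.57 to 4.84 and 3.05 to 4.39 CPM contralaterally and at 3.03 to 4.08 and 3.19 to 4.29 CPM ipsilaterally. Its log2 differences were -0.08 (SE 0.115, adjusted p = 0.780) and 0.14 (SE 0.115, adjusted p = 1.00), and the ipsilateral interval reached from -6.39% to 30.5%. The contralateral difference ran from -0.13 without H99 to 0.01 without H95. Unc13d is a gene of blood cells, so the summed macrophage markers are given beside it. They were at 137 to 260 CPM in control and 134 to 373 CPM in cKO contralateral libraries. Among cKO mice H99 had the lowest sum (134 CPM) and the highest Unc13d (4.39 CPM). The lowest Unc13d (3.05 CPM) was in H95, with a sum of 264 CPM. Among control mice the highest sums, in H96 and H62 (260 and 248 CPM), went with the highest Unc13d (4.47 and 4.84 CPM). In control mice after transection Unc13d was fitted lower (log2 difference -0.29), as were 9 of 10 lymphocyte markers. There 13 of 13 macrophage and 7 of 7 neutrophil markers were fitted higher. The part of blood cells was not tested. Baiap3 was at 2.29 to 2.71 and 2.29 to 2.83 CPM contralaterally, and at 2.01 to 2.50 and 2.23 to 2.60 CPM ipsilaterally. Its log2 differences were 0.07 (SE 0.0776, adjusted p = 0.696) and 0.08 (SE 0.0777, adjusted p = 1.00).

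Across the 6 genes other than Cadps, 0 were called between genotypes on the contralateral side by edgeR's quasi-likelihood test, where 0.0735% of all tested genes were called. At an unadjusted p under 0.05 there were 2, Unc13a and Unc13c, both lower, where 17.5% of all tested genes passed. DESeq2 called these 2, with 5.04% of its genes called. None of the 6 separated the groups on that side, where 1.52% of all tested genes did. On the ipsilateral side 0 of the 6 were called, with 0 at an unadjusted p under 0.05 and 0 by DESeq2, where 0.007% of all tested genes were called and 2.36% passed unadjusted. A p above the threshold does not show that these levels are equal, and the intervals above say which sizes remain possible under the fit. They use a single spread per gene over all 4 groups and not that of the groups compared. The SD of log2 CPM for ipsilateral Cadps2 was 0.0491 in control and 0.0212 in cKO libraries, against 0.181 and 0.118 contralaterally. For contralateral Unc13a it was 0.0425 in control and 0.159 in cKO libraries. No gene of the 6 was called higher in cKO on either side in the edgeR fit or under any of the alternatives tried, where 0.0245% (contralateral) and 0.0035% (ipsilateral) of all tested genes were called higher.

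**Figure D3:**
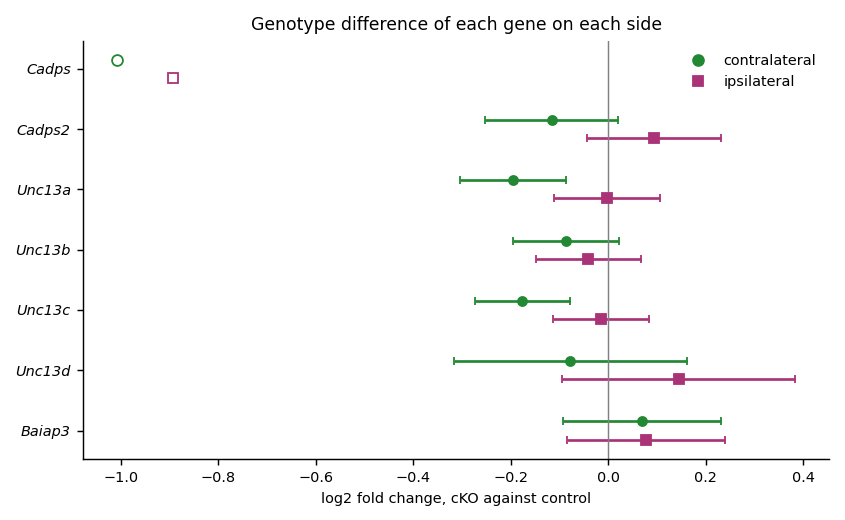
Fitted log2 difference of cKO against control for the 7 genes on each side, with bars of the 95% interval from edgeR (n = 5 mice per genotype); Cadps is drawn as a description, as its difference chose the set. Cadps lies near -1.01 and -0.89, and the 6 other genes lie between -0.20 and 0.14.

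In absolute terms the difference in Cadps was far larger than any difference of opposite sign. Cadps differed by -20.1 CPM per kb of exon contralaterally and by -18.2 CPM per kb ipsilaterally, against 0.356 CPM per kb for the ipsilateral difference of Cadps2. The summed CAPS genes stood at 46.2 ± 1.12 CPM per kb in control and 25.6 ± 2.49 CPM per kb in cKO contralateral libraries, a description that rests mostly on Cadps, and stood at 44.8 ± 1.42 and 26.9 ± 0.347 CPM per kb ipsilaterally. Cadps made up 86.6% of the contralateral CAPS sum in control and 77.7% in cKO mice, and 88.2% and 79.1% of the ipsilateral sum. The 4 UNC13 genes summed to 24.9 ± 0.605 and 22.0 ± 2.19 CPM per kb contralaterally, and to 22.4 ± 0.643 and 22.4 ± 0.459 CPM per kb ipsilaterally. The 6 genes other than Cadps together were different by -10.7% in cKO on the contralateral side and by 1.19% on the ipsilateral side.

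After nerve transection, Cadps2, Unc13a and Unc13c fell in control ganglia. Cadps2 fell by 0.23 on the log2 scale (SE 0.0658, edgeR quasi-likelihood test, adjusted p = 0.0099) and was lower on the ipsilateral side in 4 of 5 mice, with H62 falling from 71.1 to 49.7 CPM and H96 at 49.98 and 50.4 CPM. Unc13a fell by 0.16 (SE 0.0523, adjusted p = 0.0249), and was lower in 5 of 5 mice, with no overlap between 188 to 202 CPM contralaterally and 168 to 184 CPM ipsilaterally. Unc13c fell by 0.14 (SE 0.0470, adjusted p = 0.0294), also in 5 of 5 mice. These are 3 of the 7 genes, where 29.9% of all tested genes were called in either direction and 16.0% were called lower, so injury calls were common among all genes. Unc13d differed by -0.29 (SE 0.115, adjusted p = 0.0684) and was lower in 5 of 5 mice. Cadps itself was at 602 ± 18.5 CPM contralaterally and 595 ± 23.2 CPM ipsilaterally, a log2 difference of -0.02 (SE 0.0501, adjusted p = 0.836, 95% interval from -8.15% to 6.16%). The differences of Unc13b and Baiap3 were -0.04 and -0.11 and did not pass the test. Each of the 3 calls was lost in some of the fits that left out 1 mouse, while the direction stayed. Cadps2 differed by -0.15 without H62 (adjusted p = 0.0556) and by -0.21 without H63 (0.0588). Unc13a differed by -0.13, -0.15 and -0.12 without H65, H96 and H97 (0.114, 0.0754 and 0.140). Unc13c differed by -0.12 to -0.14 without any 1 of the 5 control mice (0.0576 to 0.135) and by -0.12 without cKO mouse H95 (0.0596).

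Marker lists of cell types were compared between the same libraries of control mice, where 29.9% of all tested genes were called and 16.0% were called lower. Fitted levels were higher on the ipsilateral side for 7 of 7 endothelial markers (3 called, median log2 difference 0.40), 13 of 13 macrophage markers (1 called, median 0.39), 7 of 7 neutrophil markers (0 called, median 0.60) and 6 of 6 fibroblast markers (0 called, median 0.32). Of the 19 sensory neuron markers 6 were called lower and 1 higher (median -0.05), and of the 6 satellite glia markers 2 were called higher and 1 lower (0.08). Schwann cell markers had 1 of 10 called higher (0.08), and lymphocyte markers were fitted lower for 9 of 10 genes (0 called, -0.24). The fibroblast sum was 802 to 1356 CPM contralaterally and 924 to 1519 CPM ipsilaterally, and the sensory neuron sum was 15886 to 18177 and 15790 to 17470 CPM. With a fibroblast score in the edgeR fit Cadps2 kept its call (-0.22, adjusted p = 0.0228). Unc13a and Unc13c differed by -0.10 and -0.11 in that fit and were not called (adjusted p = 0.0673 and 0.0830). The part of any cell type in these differences was not tested.

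In cKO ganglia none of the 7 genes was called after transection (edgeR quasi-likelihood test, 0 at an unadjusted p under 0.05, 0 by DESeq2), where 31.3% of all tested genes were called and 40.6% passed unadjusted. Cadps was at 299.7 ± 30.8 CPM contralaterally and 320.5 ± 5.77 CPM ipsilaterally, a log2 difference of 0.10 (SE 0.0502, adjusted p = 0.156). It was higher ipsilaterally in 4 of 5 cKO mice and lower in H99, where the values were 343 and 315 CPM. Without H99 the difference was 0.16 and was called (adjusted p = 0.0092), as were 31.5% of all genes tested in that fit. Fibroblast markers were fitted lower on the ipsilateral side for 5 of 6 genes (0 called, median -0.48), and with the fibroblast score in the fit Cadps differed by 0.05 (adjusted p = 0.420). Cadps2, Unc13a and Unc13c differed by -0.02, 0.03 and 0.02 (adjusted p = 0.841, 0.681 and 0.778), and each was higher on the ipsilateral side in 3 of 5 cKO mice. Baiap3 was lower on the ipsilateral side in 5 of 5 cKO mice, by -0.10 (adjusted p = 0.379).

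**Figure D4:**
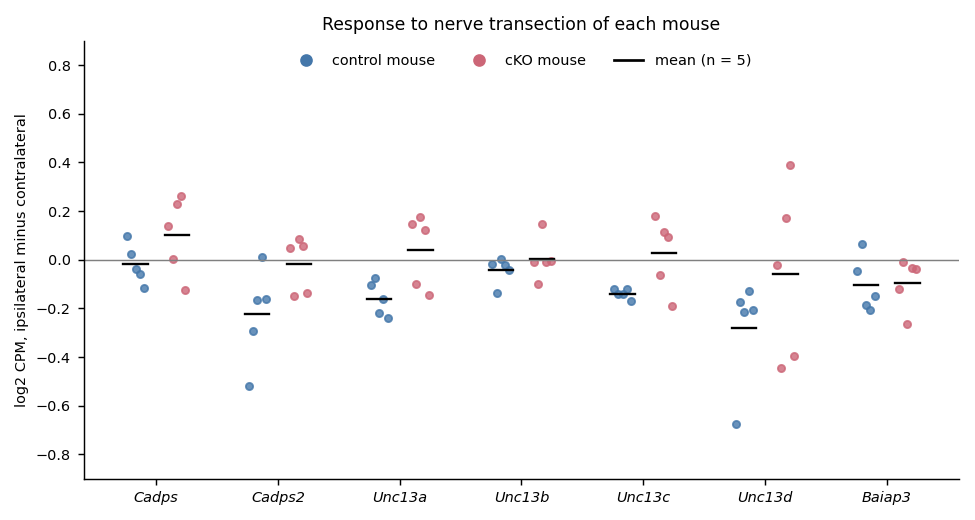
Levels of the 7 genes compared between the contralateral and ipsilateral ganglia of each mouse, with the genotypes shown apart. For Unc13a and Unc13c the ipsilateral level is lower in all 5 control mice. Among the cKO mice it is higher in 3 and lower in 2 for each of these genes.

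Whether a gene responded to injury differently in the 2 genotypes was tested as an interaction, and 0 of the 7 genes were called, as were 0.0% of all tested genes. At an unadjusted p under 0.05 there were 3 of 7 genes, where 9.8% of all tested genes passed, and DESeq2 called 0 of the 7. The 3 were Cadps2, with a log2 interaction of 0.21 (SE 0.0930, edgeR quasi-likelihood test, adjusted p = 0.498), Unc13a, with 0.19 (SE 0.0739, adjusted p = 0.485), and Unc13c, with 0.16 (SE 0.0665, adjusted p = 0.496). The loss of level seen in control mice after injury is thus not shown to differ in cKO mice. The interaction shares its libraries with the 4 comparisons above, so the lower contralateral levels of Unc13a and Unc13c in cKO mice enter both the genotype and the interaction values. For Cadps the interaction was 0.11 (SE 0.0709), given as a description. In the same contrast the fitted values were below 0 for 6 of 6 fibroblast markers (median -0.78), 13 of 13 macrophage markers (-0.34), 7 of 7 neutrophil markers (-0.71) and 7 of 7 endothelial markers (-0.33), with 0 called. With the fibroblast score in the fit the interactions were 0.19 for Cadps2, 0.09 for Unc13a, 0.10 for Unc13c and 0.01 for Cadps. The part of any cell type in the interaction was not tested.

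The partners of the priming proteins were grouped in 3 lists: the SNARE fusion machinery and its regulators (20 genes), release site scaffolds and Rab effectors (17 genes), and dense-core vesicle proteins, prohormone enzymes and peptides (22 genes). All of these genes were tested. On the contralateral side 1 of 20 fusion genes was called lower in cKO, Syt9, a synaptotagmin that senses calcium for release, at 214 ± 6.17 and 187 ± 9.95 CPM (log2 difference -0.20, SE 0.0310, adjusted p = 0.0142), where 0.0735% of all tested genes were called. None of the 17 release site genes was called by edgeR, and 1 (Sytl4) by DESeq2, which called 5.04% of its genes. Of the 22 dense-core genes 1 was called lower by edgeR, Vgf, the precursor of secreted peptides, at 146 ± 13.9 and 111 ± 4.41 CPM (log2 difference -0.39, SE 0.0556, adjusted p = 0.0048). DESeq2 called 3 of the dense-core genes, Nppb, Scg3 and Vgf. With the fibroblast score in the fit, where the 6 fibroblast markers had a median difference of 0.81 in this comparison, Syt9 differed by -0.16 (adjusted p = 0.340) and Vgf by -0.41 (adjusted p = 0.0549). With only the libraries compared they differed by -0.18 and -0.37 (adjusted p = 0.384 and 0.317). Syt9 lost its call without H63, H95, H97 or H100 (adjusted p = 0.0588 to 0.152) and Vgf without H95 (0.0563). The median log2 differences of the lists were -0.07, -0.12 and -0.05, against -0.01 over all tested genes. On the ipsilateral side 0 genes of each list were called, by edgeR and by DESeq2, where edgeR called 0.007% of all tested genes.

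After injury genes of the lists were called in both directions, where 29.9% of all tested genes were called in control and 31.3% in cKO ganglia. In control ganglia 10 of 20 fusion genes were called, 5 of them higher. Syt4, a synaptotagmin of dense-core vesicles, rose from 399.7 ± 10.7 to 639 ± 18.3 CPM and Syt7, a slow calcium sensor, fell from 375 ± 13.2 to 268 ± 11.7 CPM. Of the release site genes 10 of 17 were called, 8 of them lower. Rab27b, a small GTPase of secretory vesicles, fell from 153 ± 8.71 to 92.4 ± 6.23 CPM, and Erc2, a scaffold of the active zone, rose from 118 ± 3.71 to 156 ± 3.98 CPM. Of the dense-core genes 10 of 22 were called, 7 of them higher, among them Adcyap1, the PACAP neuropeptide gene, which rose from 118 ± 7.46 to 402 ± 17.5 CPM. In cKO ganglia 9, 9 and 10 genes of the lists were called, of which 6, 3 and 8 were higher. No gene of the lists was called for the interaction by edgeR, which called 0 over all genes. DESeq2 called 1 fusion and 1 dense-core gene among the 12 genes it called over all.

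The genes next to Cadps on chromosome 14 did not separate the genotypes on both sides as Cadps did. Over all tested genes, 0.0105% kept all 10 cKO libraries apart from all 10 control libraries. The 5 nearest tested protein-coding genes on each side were, in order, Fhit, Gm3839, Gm49355, 3830406C13Rik and Fezf2, and then Synpr, Thoc7, Atxn7, Psmd6 and Il3ra. None of the 10 was called between genotypes on either side by edgeR or DESeq2. Over all tested genes edgeR called 0.0735% contralaterally and 0.007% ipsilaterally, and DESeq2 called 5.04% of its genes contralaterally. A count of 0 in 10 is near those shares. Synpr, the adjacent gene with the highest level and one that encodes a synaptic vesicle protein, was at 326 CPM in control and 313 CPM in cKO contralateral libraries (log2 difference -0.06, SE 0.0522, adjusted p = 0.590). The fitted contralateral differences of the neighbours with counts ran from -0.09 for Gm49355 to 0.22 for Gm3839 (95% interval 0.04 to 0.40, adjusted p = 0.201). Fezf2 had 0 counts in every contralateral library and 4 to 20 counts in ipsilateral libraries.

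**Figure D5:**
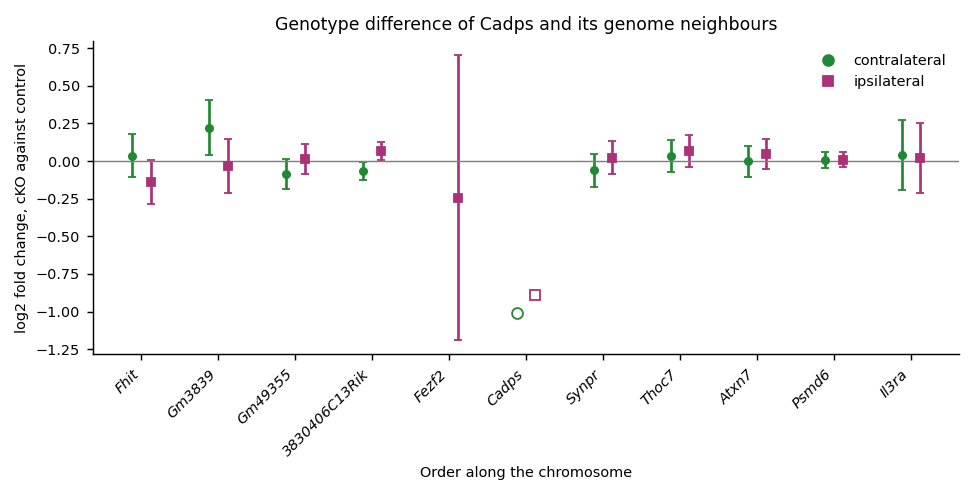
Fitted log2 difference of cKO against control for Cadps and its 10 nearest tested protein-coding genes, in chromosome order, for each side, with bars of the 95% interval; Fezf2 has no contralateral interval since it had no counts there. Cadps lies near -1.01 and -0.89; the contralateral neighbours lie between -0.09 and 0.22, and Fezf2, with few counts, lies at -0.24 ipsilaterally with the widest interval.

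Across the 20 libraries the levels (log2 CPM) of 13112 genes with a symbol and a mean of at least 5 CPM were compared with Cadps by Pearson's r, as a description in which the libraries share mice and the genotypes differ in Cadps. The highest were Ddhd1, a phospholipase (r = 0.817), Mapk1ip1l (0.761) and AB041806 (0.753), and the lowest were Thy1 (-0.952), Nt5dc2 (-0.841) and Pias2 (-0.802). Ddhd1, Mapk1ip1l and Nt5dc2 lie on chromosome 14, as Cadps does and as do 3.60% of the 23401 tested genes with a chromosome. They were picked by their likeness to Cadps, and the cause was not tested. For Cadps2, Tbx3os2 (0.853) and Diras2 (0.832) were among the 3 highest, and the lowest were Pisd (-0.775), Nek6 (-0.762) and Tmem176b (-0.760). Cadps and Cadps2 themselves had r = 0.0691.

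The transcripts of the 7 genes share few stretches of sequence. Of the 15346 stretches of 31 bases in the transcripts of Cadps, 6 occur in another gene and 0 in another of the 7. Unc13a and Unc13b share 2 stretches. The share of stretches that occur in any other gene was 3.68% for Unc13a, 3.57% for Unc13d and 2.10% for Baiap3. It was 0.366% for Cadps2, 0.161% for Unc13b and 0.0% for Unc13c. Exons of Unc13a overlap those of Colgalt1 on the other strand over 495 bases, which is 3.92% of its exon length, and exons of Baiap3 overlap Tsr3 over 140 bases, or 2.74%. The strand setting of the counting is not given in the sources used here, so reads there could count for either gene.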

How the data were processed

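Raw exonic counts of each gene in 20 libraries were deposited as whole numbers, with no normalization. The deposited FPKM table was made by the authors from a length close to the whole gene span (within 5% for 93.0% of 18805 genes), so it was used only within genes, as an alternative. HISAT2, Picard and the builds mm10 and mm39 are named, without roles, per the submitters' processing notes; annotation and strand setting are not given in the sources used here. Symbols and lengths came from GENCODE M21 by Ensembl identifier; promoters are RefSeq GRCm38.p6. A label field names a spinal cord injury where the protocol describes sciatic transection, which was followed, and 1 title shortens a mouse number, for which the library name was used.

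Counts were filtered with filterByExpr (minimum count 10), scaled by TMM and fitted with edgeR 4.0.16 (R 4.3.3), using the robust quasi-likelihood F-test on all 20 libraries together, with a mean for each group. P-values were adjusted by Benjamini-Hochberg over the 28564 genes of each comparison, and called under 0.05. Intervals (95%) use the SE of the fit. The procedure was tested on simulated counts. Alternatives were DESeq2 1.42.0 and limma 3.58.1 (voom, and log2 FPKM with a pseudocount of 1 or 0.1), RLE size factors, other filters, covariates, the replicate block and each mouse left out. Replicates are separate mice; reads carried no molecular identifiers, so counts limit only counting error. The 2 libraries of a mouse come from the same animal; their deviations from the group means had a median correlation of 0.186 (-0.0546 to 0.361), over 0.1 in 7 of 10 mice.

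The 7 genes, the lists and the tests were chosen with earlier results of these data known. Named genes are the 7, Ahr and Thy1, the neighbours of Cadps, list genes called between genotypes or with the 2 highest or 2 lowest called injury differences, and the 3 genes most and least like Cadps or Cadps2. One gene that this rule names is not reported here. Marker lists also covered satellite glia, Schwann cells, macrophages, neutrophils, lymphocytes and endothelium.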

Additional observations from a re-analysis of the deposited data

Results flagged for a closer look

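Among 74 groups of 5 libraries with any spread, 5 had a single library far from the others, where chance gives about 1 in 20 groups, or 3.7. Each value is the gap to the nearest library divided by the range of the group. Unc13c was lowest in control mouse H96 on the contralateral side (0.817; 61.1 CPM against a mean of 66.0 in the others), and Unc13d was highest in H96 on the ipsilateral side (0.736; 4.08 against 3.15 CPM). Among the neighbours of Cadps, Atxn7 was lowest in control contralateral H65 (0.732; 13.3 against 15.1 CPM). Il3ra was highest in control contralateral H96 (0.802; 3.29 against 2.70 CPM) and lowest in cKO contralateral H99 (0.776; 2.23 against 3.07 CPM).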

How the results depend on the processing

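Contralateral genotype calls among the 6 genes rose from 0 to 2 with DESeq2 and ranged from 0 to 2 when each mouse was left out, the 2 being Unc13a and Unc13c without H99; the cause was not tested. Ipsilateral genotype calls stayed at 0 in every alternative run. Injury calls in control mice went from 3 to 1 (Cadps2) with no filter on low counts and with a fibroblast score as a covariate, and ranged from 1 to 3 with a mouse left out; Cadps2 also lost its call when only the compared libraries were fitted (adjusted p = 0.0505). Injury calls in cKO mice ranged from 0 to 1 with a mouse left out, and interaction calls stayed at 0 in each such fit. With the replicate block by mouse the calls were 3 in control, 0 in cKO and 0 for the interaction, as without it. In the lists, DESeq2 gave 1 in place of 0 fusion genes and 1 in place of 0 dense-core genes for the interaction, 1 in place of 0 release site genes (Sytl4) and 3 in place of 1 dense-core genes (Nppb, Scg3, Vgf) for the contralateral genotype difference. The ipsilateral CAPS sum differed by -41.8% in cKO with coding length and by -39.9% with exon length. The log2 difference of Cadps shrank to -0.91 contralaterally with the fibroblast score, and to -0.48 and -0.43 (contralateral and ipsilateral) on FPKM with a pseudocount of 1, -0.89 and -0.80 with 0.1; none of these reversed. Over all genes, contralateral genotype calls went from 21 to 1032 with DESeq2, 50 with no filter and 45 with a mean CPM of at least 1. They went to 2 with the fibroblast score, 2 with only the compared libraries, and 12 and 13 on FPKM with a pseudocount of 1 and 0.1. With a mouse left out they went to 3326 without H99, 174 without H61 and 4 without H95. They were 5 without H63 or H97, 6 without H100, 10 without H65 or H96 and 12 without H64. Interaction calls went from 0 to 12 with DESeq2 and to 43 without H99. Unc13d and Baiap3 had 168 to 538 counts per library, the lowest of the 7 genes.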

Other observations

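Of the 28564 tested genes, 3 had all 10 cKO libraries apart from all 10 control libraries over both sides: Thy1, which differed by 62.6% in cKO, Cadps, by -48.2%, and Nt5dc2, a gene of the nucleotidase family, by 23.7%. Cadps and Nt5dc2 lie on chromosome 14. Of the 18 contralateral genotype calls with a chromosome other than Cadps, whose difference chose the set, 2 lie on chromosome 14 (Nt5dc2 and Ddhd1), as do 3.60% of the 23401 tested genes with a chromosome. Nt5dc2 was at 4.83 ± 0.274 CPM in control and 6.68 ± 0.406 CPM in cKO contralateral libraries, and Ddhd1 at 88.7 ± 2.09 and 72.8 ± 4.81 CPM (n = 5 mice each). These values were picked after they were seen.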
